A study of Mus musculus with 8 samples.

Results

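The cadherin and protocadherin genes of the ventral pallidum (VP) were compared between mRNA on the tagged ribosomes of vGluT2-expressing neurons (TRAP) and mRNA of the VP tissue (INPUT). The genes were taken by name, with earlier results of these data known: protein-coding genes called Cdh followed by a digit, or Pcdh. There were 49 of them among the 14353 genes with values. They comprised 16 Cdh genes, 20 genes of the beta protocadherin cluster (Pcdhb), 1 entry each of the alpha and the gamma clusters (Pcdha11 and Pcdhgc4), and 11 protocadherin genes outside the clusters. Levels are in CPM, nominally reads of a gene scaled to the size of the library. Whether a further adjustment went into the deposited levels was not determined. All 49 exceeded 1 CPM in at least 3 libraries and were tested.

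The tissue came from mice homozygous for VGluT2-Cre and heterozygous for the Rpl22 RiboTag allele, which puts an HA tag on ribosomes of cells in which Slc17a6 (encoding vGluT2) drives or once drove Cre. Both fractions came from the same mice, which had no treatment. There were 4 pools of male and female mice (named VP1.6, then VP2.2, then VP2.6, and VP2.11), with 1 library per fraction each: VP1.6 held 7 mice of 9 to 12 weeks, and the other pools held 10, 11 and 10 mice of 10 to 16 weeks, in that order. INPUT is labelled as holding all neurons and glia and TRAP as holding glutamatergic neurons, and the methods at one point call the fraction sequenced beside TRAP unbound. The slab that was punched can include neighbouring striatum, and a mean over pooled mice says nothing of single cells. Below, the 4 values of a fraction are always listed in that order of pools. Libraries of a pool deviated oppositely from the means of their fractions, and whether the values had been adjusted by pool was not determined. The SDs and the lack of overlap given below may therefore understate the spread of the pools.

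Cadherins are calcium-dependent adhesion proteins of the cell surface. Classical cadherins bind like molecules on the next cell and, inside the cell, hold beta-catenin, alpha-catenin and p120, which tie them to actin. In the brain they sit beside the release sites of synapses, and single type II cadherins mark particular circuits. The clustered protocadherins are encoded in neighbouring arrays of alike exons, each with its own promoter. A neuron uses a small and largely random choice of them, chosen with the help of CTCF, cohesin and DNA methylation, and the resulting surface code lets a neuron tell its own branches from those of others. A beta gene is a single coding exon, whereas alpha and gamma variable exons are spliced to constant exons that their cluster shares. The protocadherins outside the clusters, most of them of the delta groups, are adhesion and signalling proteins with regional patterns in the forebrain.

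Slc17a6 rose 2.55 ± 0.24 (SE) on the log2 scale in TRAP, with an adjusted p of 7.3e-06, as the labels would have it. Of the marker lists, astrocyte genes were lower in 4 of 6 cases, oligodendrocyte genes in 5 of 6 and microglial genes in 4 of 6, and none of these lists held a gene called higher. Of the precursor genes 2 of 4 were lower and 1 higher, and of the mural and fibroblast genes 2 of 6 were lower. Of 5 pan-neuronal genes 4 were higher. Beside these counts, 16.8% of all genes tested were called lower and 15.4% higher. The GABAergic gene Slc32a1 fell by 1.26, but Gad1 and Gad2 remained abundant in TRAP, with means of 613 and 528 CPM against 516 and 560 CPM in INPUT. Fewer cells of a type and less RNA per cell cannot be told apart in such bulk fractions, and the part of neuronal enrichment as a whole in the differences below was not tested.

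The summed level of the family was higher in TRAP, and no gene was called lower. Of the 49 genes, 20 rose and 0 fell (limma with pool as a block, Benjamini-Hochberg adjusted p under 0.05 over 14249 genes), and 29 did not pass the threshold. That is 40.8% of the family called higher, beside 15.4% of all genes tested. In the other direction 16.8% of all genes were called lower, and 32.2% passed the threshold in either direction. The median log2 fold change was 0.90 over the family and -0.05 over all genes. The log2 CPM summed back to a linear scale gave 1568 ± 74.1 CPM for the family in TRAP and 1061 ± 85.7 CPM in INPUT (SD, n = 4), and the lowest TRAP library, at 1506 CPM, lay above the highest INPUT library, at 1148 CPM. The mean sum over all genes tested was also higher in TRAP, at 1052000 CPM against 917200 CPM in INPUT. The single entry Pcdhgc4 held 385 CPM of the family's sum in TRAP and 255 CPM in INPUT.

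**Figure D1:**
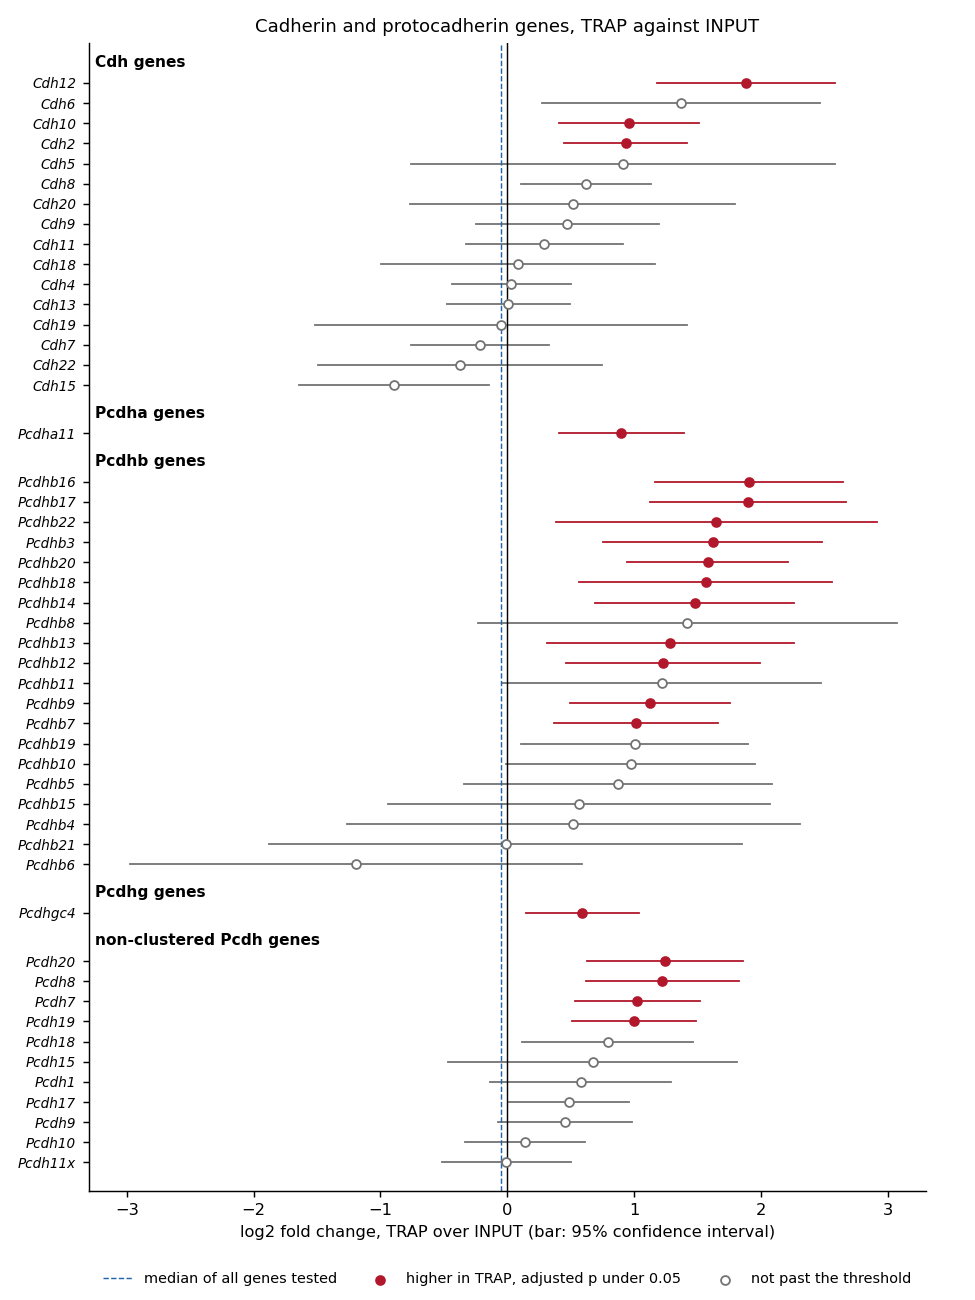
Log2 fold change of TRAP over INPUT for each of the 49 genes (x axis), grouped by class and sorted within it, with the 95% confidence interval of the fit with pool as a block. Red filled points mark the 20 genes past the threshold, all to the right of 0, and the dashed line marks the median of all genes tested, -0.05.

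The classes differed in how many of their genes moved. The Pcdhb genes had 11 of 20 called higher and a median of 1.22, the non-clustered protocadherins 4 of 11 and a median of 0.67, and the Cdh genes 3 of 16, or 18.8%, and a median of 0.38. For the Cdh genes that share is near the 15.4% of all genes. The difference between these counts was not tested. In the fit without the block 27 genes of the family were higher and 1 was lower, but there 23.2% of all genes were called higher and 24.8% lower. The 8 genes that this fit called in addition were Cdh6, Cdh8, Pcdh17, Pcdh18, Pcdhb10, Pcdhb11 and Pcdhb19 (higher) and Cdh15 (lower).

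Within pools, the median difference of the Pcdhb genes was 1.25, 1.47, 0.91 and 1.16, and every pool lay far above the medians of all genes, which ran from -0.04 to -0.01. The non-clustered protocadherins gave 0.12, 1.06, 0.48 and 0.90. For the Cdh genes the medians were 0.47, 0.91, -0.25 and 0.20, so that their median changed sign between pools.

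**Figure D2:**
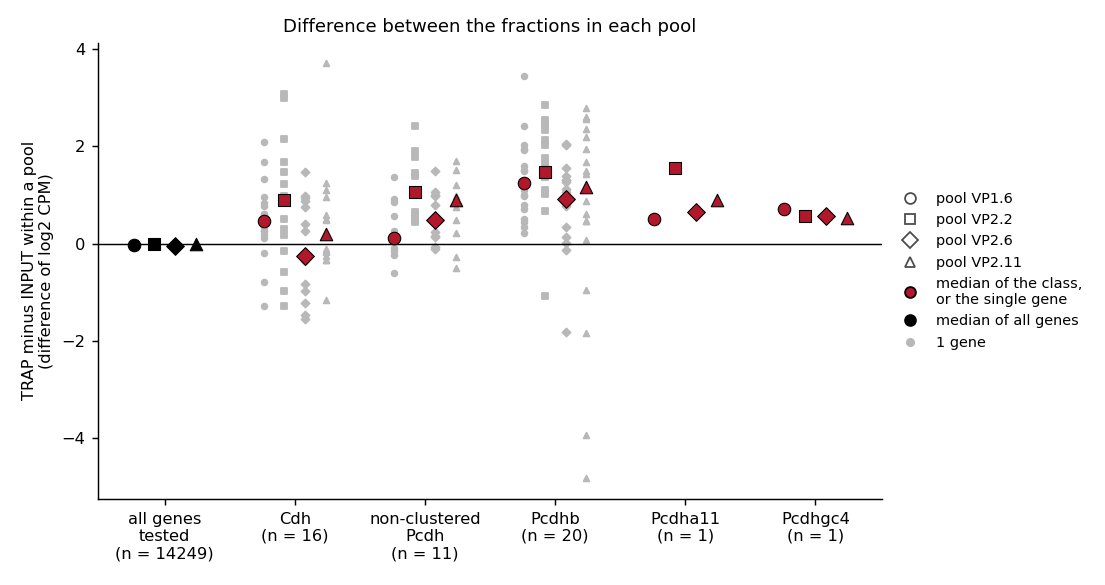
Difference of log2 CPM between TRAP and INPUT of the same pool (y axis) for all genes tested, 3 classes and the 2 single entries; large symbols are medians (or the single gene), grey symbols are genes, and the symbol's shape gives the pool. The Pcdhb median lies between 0.91 and 1.47 in every pool, whereas the Cdh median crosses 0.

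The beta protocadherins were mostly higher in TRAP. The 20 genes lie head to tail on the plus strand of chromosome 18, between 37300799 and 37524479 (GRCm38), and encode surface proteins that carry the cadherin repeats of the family but no common intracellular constant part. Summed over the cluster, TRAP held 135 ± 34.5 CPM and INPUT 53.8 ± 12.2 CPM (SD, n = 4), and the lowest TRAP library, at 112 CPM, was above the highest INPUT library, at 69.2 CPM. Of the 20 genes, 18 had a mean difference above 0. In 15 of them every TRAP library lay above every INPUT library, which 23.3% of all genes did.

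Pcdhb16 and Pcdhb17 had the smallest adjusted p-values of the cluster. Pcdhb16 stood at 3.15, 3.32, 3.11 and 4.01 log2 CPM in TRAP and at 1.20, 0.98, 1.73 and 2.07 in INPUT. The fractions did not overlap, and VP2.11 was the highest library in each. The difference was 1.90 ± 0.35 (SE), a 3.74-fold rise, with an adjusted p of 0.00106. Pcdhb17 stood at 3.55, 3.98, 3.33 and 4.79 in TRAP and at 1.95, 1.13, 2.55 and 2.44 in INPUT. Its TRAP values were again all above the INPUT values, by 1.90 ± 0.36 (SE), with an adjusted p of 0.00144. For either gene, as for every gene without overlap, the exact two-sided permutation test over the 8 libraries gave p = 0.0286, the smallest it allows, which takes no account of the pools and restates that the fractions did not overlap.

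Pcdhb20 and Pcdhb9 were the most abundant beta genes per length of exon. Pcdhb20 gave 3.73, 3.91, 3.78 and 4.32 log2 CPM in TRAP against 2.24, 1.88, 2.47 and 2.83 in INPUT, with no overlap. It rose by 1.58 ± 0.30 (SE) with an adjusted p of 0.00131. Pcdhb9 gave 3.78, 3.55, 3.71 and 4.59 in TRAP and 2.49, 2.87, 2.85 and 2.92 in INPUT. Its TRAP value was well above the others in VP2.11, at 4.59 against 3.55 to 3.78. The INPUT libraries of Pcdhb9 lay close together apart from VP1.6, the lowest, and the gene rose by 1.13 ± 0.30 (SE), with an adjusted p of 0.00992. Pcdhb7 was more even in TRAP, with 3.45, 3.39, 3.36 and 3.66, and gave 2.18, 2.29, 2.55 and 2.78 in INPUT. It rose by 1.01 ± 0.30 (SE, adjusted p = 0.0196), a call that was lost without VP1.6 (0.93) or VP2.6 (1.08).

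Pcdhb14 held 2.91, 2.76, 2.75 and 3.40 log2 CPM in TRAP and 0.88, 1.39, 1.68 and 1.96 in INPUT. The fractions were well separated, with a rise of 1.48 ± 0.37 (SE) with an adjusted p of 0.00714. Pcdhb12 held 2.84, 3.10, 3.06 and 2.91 in TRAP against 1.6, 1.34, 1.74 and 2.30 in INPUT, a rise of 1.23 ± 0.36 (SE, adjusted p = 0.0172). Its TRAP values were among the tightest of the cluster. However, 62.9% of the 75-base stretches of its exons also occur in transcripts of Gm37446 or of other Pcdhb genes. Whether the authors' annotation held Gm37446 was not checked, so the countable part of Pcdhb12 and its level are uncertain. The call was lost without any one of VP1.6, VP2.2 and VP2.6, at differences of 1.05 to 1.23.

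In 4 further called beta genes TRAP VP2.11 was the highest library by a wide margin. Pcdhb3 was at 2.24, 2.43, 2.61 and 3.92 log2 CPM in TRAP and at 1.26, 1.06, 1.05 and 1.36 in INPUT. It rose by 1.62 ± 0.40 (SE, adjusted p = 0.00752), and the fractions did not overlap with or without VP2.11. Pcdhb13 was at 1.83, 2.08, 2.112 and 3.90 in TRAP and at 1.39, 1.06, 1.21 and 1.12 in INPUT. It rose by 1.29 ± 0.45 (SE, adjusted p = 0.0421), and without VP2.11 the difference was 0.79 with an adjusted p of 0.197. The call was also lost without VP2.2 (1.38) or VP2.6 (1.41). Pcdhb18 was at 1.58, 1.95, 2.30 and 3.12 in TRAP and at 1.07, 0.45, 0.26 and 0.92 in INPUT, a rise of 1.57 ± 0.47 (SE, adjusted p = 0.0191) that was lost without VP2.6 (1.41) or VP2.11 (1.35). Pcdhb22, one of the least abundant called genes, was at 1.22, 1.72, 0.76 and 2.80 in TRAP and at -0.29, -0.75, 0.74 and 0.20 in INPUT. Its fractions were separated by a narrow margin in VP2.6, and its rise of 1.65 ± 0.59 (SE, adjusted p = 0.0448) was lost without any one of VP1.6, VP2.2 and VP2.11 (1.33 to 1.70). For Pcdhb9 and Pcdhb17 the TRAP value of VP2.11 was also the highest, but both calls were kept without any one pool.

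**Figure D3:**
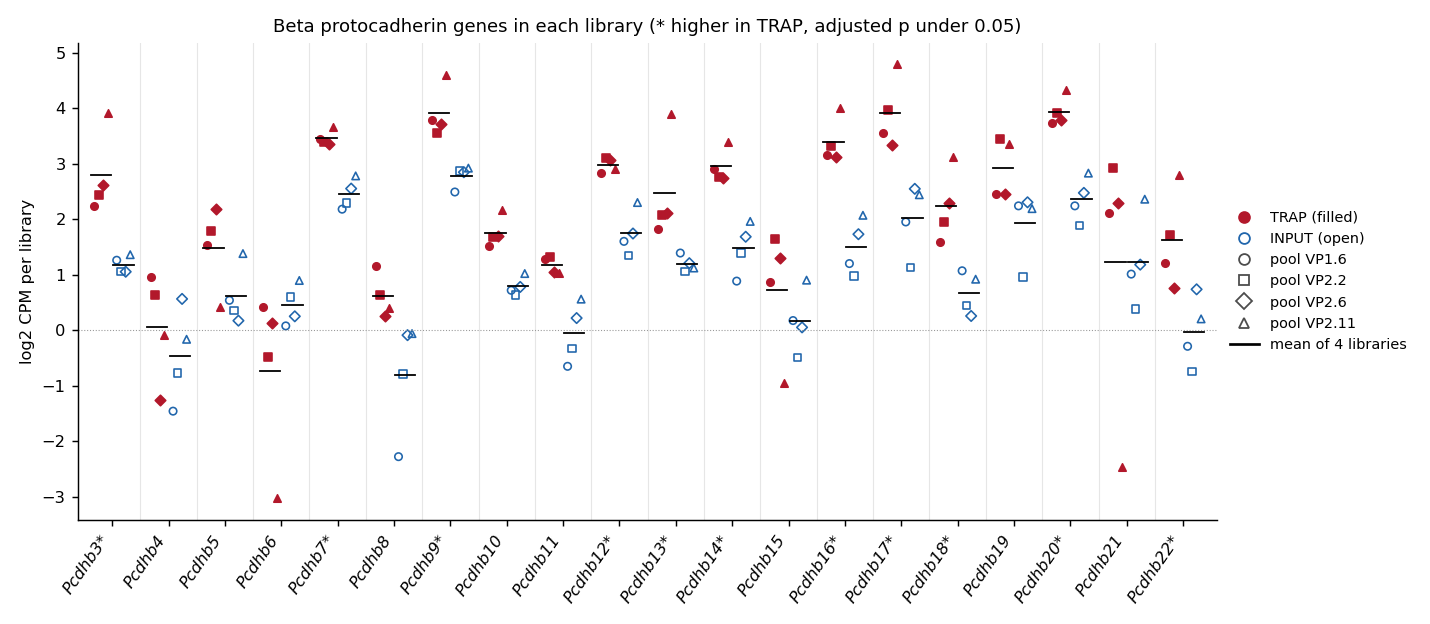
Log2 CPM (y axis) of the 20 Pcdhb genes in each of the 8 libraries, TRAP filled red and INPUT open blue, with the pool given by the symbol and the mean of 4 libraries by a bar; an asterisk marks the 11 genes past the threshold. TRAP lies above INPUT for most genes, and the TRAP triangles of VP2.11 are the highest of their group for 11 genes and far below it for Pcdhb6 and Pcdhb21.

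The 9 beta genes that were not called were mostly the low ones. Pcdhb8, Pcdhb10, Pcdhb11 and Pcdhb19 had every TRAP library above every INPUT library and mean differences of 0.97 to 1.42, with adjusted p-values of 0.079 to 0.173. Pcdhb4, Pcdhb5 and Pcdhb15 had differences of 0.52, 0.87 and 0.56 with intervals that held 0, although Pcdhb5 was called without VP2.11 (1.48, adjusted p = 0.0481) and stood at 0.49 without VP2.6. Pcdhb6 and Pcdhb21 stood apart. Pcdhb6 had 0.42, -0.48, 0.13 and -3.03 log2 CPM in TRAP and 0.08, 0.60, 0.25 and 0.90 in INPUT, so that its mean difference of -1.19 (95% interval -2.98 to 0.59) came largely from TRAP VP2.11. Without that pool it was -0.28. Pcdhb21 had 2.114, 2.93, 2.30 and -2.46 in TRAP and 1.01, 0.38, 1.18 and 2.36 in INPUT. It was higher in TRAP in 3 pools and lower in VP2.11, and without VP2.11 it rose by 1.59 with an adjusted p of 0.0238. Across the cluster, TRAP VP2.11 was the highest TRAP library for 11 of the 20 beta genes and the lowest for 5.

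The read numbers behind single genes were not recovered. In VP2.2 and VP2.6, differences between the fractions of a pool fell on the steps that ratios of whole reads leave, and an estimate from these steps put the VP2.2 libraries at 13.2 M reads (TRAP) and 39.9 M (INPUT) and those of VP2.6 at 13.0 M and 25.8 M. The steps fix a ratio between fractions and not the reads of a gene. For VP1.6 and VP2.11, where values were rounded to 3 digits, the depth is unknown, and so are the reads behind the low TRAP values of VP2.11.

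Position, length and level of the beta genes were set beside their fold change. Across the 20 genes, which share libraries, Spearman's rho with the log2 fold change was 0.34 for the position along the cluster, 0.38 for exon length and 0.46 for the TRAP level per kb. The TRAP level is itself a term of the fold change, so a positive rho between them can arise from that alone. Over all genes tested, exon length and fold change had a rho of 0.41. The Pcdhb genes span 2801 to 8695 exon bases, and the 8031 genes tested within that range had a median of 0.04, with 16.5% called higher. After the length trend of each pool was removed, the median of the Pcdhb genes was 1.18 and 10 of 20 were called higher.

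The alpha and gamma clusters were each represented by 1 entry. Both clusters lie next to the beta genes on chromosome 18. Of the 36 alpha and gamma genes in the annotation used here, 2 had an identifier in the table. The 34 others all have identifier numbers above the highest in the table, so their absence says nothing of their expression. In exons of that annotation, 57.7% of the 75-base stretches of Pcdha11 and 36.6% of those of Pcdhgc4 recur in other genes of their clusters. Which exons the authors counted for them was not determined, so both are described as entries of their clusters and not as single isoforms, and are left out of levels per kb.

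Pcdha11 was at 6.88, 7.15, 6.94 and 7.20 log2 CPM in TRAP and at 6.38, 5.59, 6.30 and 6.31 in INPUT. The TRAP values were all higher, with the INPUT library of VP2.2 well below its group, and the entry rose by 0.90 ± 0.23 (SE, adjusted p = 0.00843). Pcdhgc4 was at 8.68, 8.48, 8.58 and 8.61 in TRAP and at 7.97, 7.92, 8.01 and 8.08 in INPUT. It was the entry with the most reads of the family and had the narrowest spread, with mean levels of 385 ± 21.1 and 255 ± 12.2 CPM (SD, n = 4). Its rise was 0.59 ± 0.21 (SE, adjusted p = 0.0423). That call was lost without any one of VP1.6, VP2.6 and VP2.11, although the difference then stayed between 0.55 and 0.61.

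Among the protocadherins outside the clusters, 4 of 11 rose and 0 fell, beside 15.4% and 16.8% of all genes. In the delta-1 group Pcdh7, which binds the phosphatase PP1 through its intracellular part, was at 5.34, 5.42, 5.31 and 5.62 log2 CPM in TRAP and at 4.42, 4.03, 4.51 and 4.64 in INPUT. The fractions were clearly apart, by 1.02 ± 0.23 (SE, adjusted p = 0.00405), and 20.1% of its 75-base stretches are shared with 4932441J04Rik. With the length trend removed the difference was 0.56 (adjusted p = 0.0453). Pcdh9, the delta-1 gene with the highest level, was at 6.50, 6.42, 6.18 and 5.86 in TRAP and at 5.65, 5.40, 5.94 and 6.14 in INPUT. It was higher in TRAP in 3 pools and lower in VP2.11, and its difference of 0.46 (95% interval -0.07 to 0.99) did not pass the threshold, nor did the 0.70 found without VP2.11. Pcdh1 and the X-linked Pcdh11x were not called either, with differences of 0.58 and -0.01.

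In the delta-2 group Pcdh8 and Pcdh19 rose. Pcdh8 (arcadlin), whose expression follows neuronal activity and which pulls N-cadherin from the synaptic surface, was at 4.78, 5.38, 5.47 and 5.81 log2 CPM in TRAP and at 4.67, 3.60, 3.98 and 4.30 in INPUT. In VP1.6 the fractions were nearly equal and in the other pools far apart, with a rise of 1.22 ± 0.28 (SE, adjusted p = 0.00474). Pcdh19, the X-linked epilepsy gene whose protein works as a complex with N-cadherin, was at 5.81, 6.05, 6.07 and 6.14 in TRAP and at 5.23, 4.60, 5.01 and 5.24 in INPUT. Its TRAP values lay within a narrow band above all INPUT values, a rise of 1.00 ± 0.23 (SE, adjusted p = 0.00439) that came to 0.54 (adjusted p = 0.0467) with the length trend removed.

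Pcdh17, which acts in presynaptic assembly of corticobasal ganglia circuits, was at 6.90, 7.13, 6.85 and 7.07 log2 CPM in TRAP and at 6.65, 6.07, 6.69 and 6.59 in INPUT. Every TRAP library was above every INPUT library, but the difference of 0.49 ± 0.22 (SE) had an adjusted p of 0.106 with the block and 0.0261 without it, and it was -0.05 once the length trend was removed. Pcdh10, which recruits the WAVE complex to cell contacts, was at 6.34, 6.68, 6.42 and 6.60 in TRAP and at 6.57, 6.03, 6.49 and 6.39 in INPUT. Its fractions overlapped, and the difference of 0.14 had an interval of -0.34 to 0.61. Pcdh18 differed by 0.79 (adjusted p = 0.0693), with a higher TRAP value in 3 pools, and was called without VP1.6 (1.11, adjusted p = 0.0362), but came to 0.49 without VP2.11 (adjusted p = 0.278).

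Outside the delta groups, Pcdh20 was at 4.41, 4.57, 4.07 and 4.75 log2 CPM in TRAP and at 3.03, 2.66, 3.59 and 3.54 in INPUT. It had the largest rise of the non-clustered genes, 1.24 ± 0.29 (SE, adjusted p = 0.00487), with no overlap between the fractions. Pcdh15, best known from the tip links of inner ear hair cells, had the lowest level per kb of the ranked genes and differed by 0.67 with an interval of -0.47 to 1.81.

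**Figure D4:**
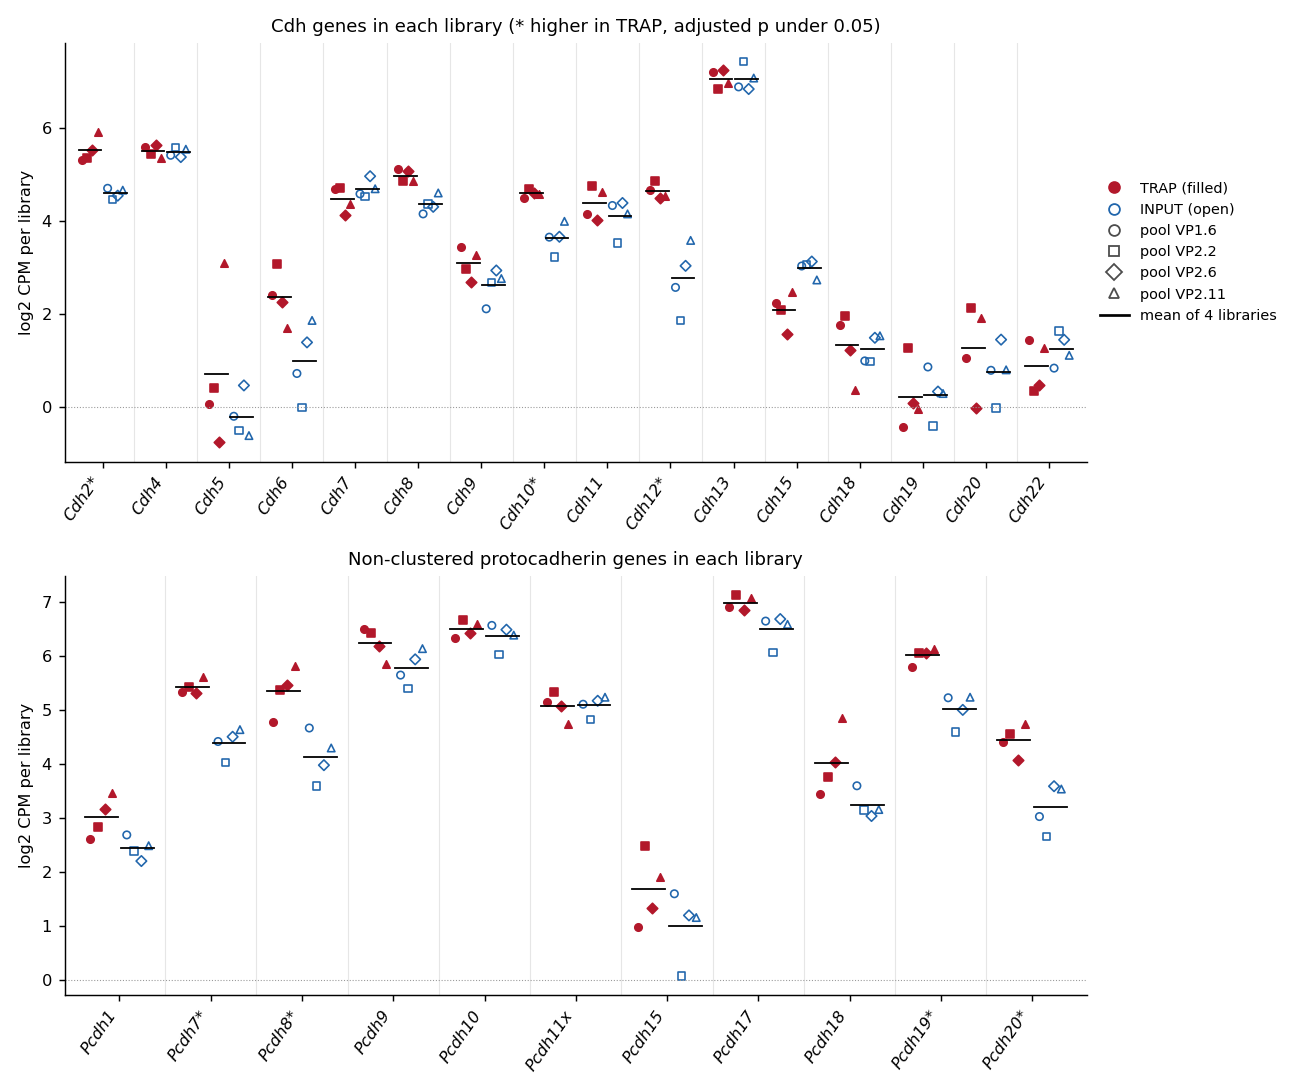
Log2 CPM (y axis) of the 16 Cdh genes (top) and the 11 non-clustered protocadherin genes (bottom) in each library, TRAP filled red and INPUT open blue, with the pool given by the symbol and the mean of 4 libraries by a bar; asterisks mark the genes past the threshold in both panels. Cdh2, Cdh10, Cdh12, Pcdh7, Pcdh8, Pcdh19 and Pcdh20 are marked, and the TRAP value of Cdh5 in VP2.11 stands alone.

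Of the Cdh genes 3 of 16 rose and 0 fell, beside 15.4% and 16.8% of all genes. Cdh12, a type II cadherin of the brain, had the smallest adjusted p of the whole family. It was at 4.68, 4.87, 4.51 and 4.55 log2 CPM in TRAP and at 2.58, 1.87, 3.04 and 3.59 in INPUT. The TRAP libraries were alike and the INPUT libraries spread over a wide range below them, with a rise of 1.88 ± 0.33 (SE), or 3.68-fold, and an adjusted p of 7.9e-04. Cdh10, another type II gene, rose by 0.96 ± 0.26 (SE, adjusted p = 0.0117) with mean levels of 24.3 ± 1.44 CPM in TRAP and 12.7 ± 2.70 CPM in INPUT (SD, n = 4). Both calls were kept without any one pool, but removal of the length trend took Cdh10 to 0.52 and an adjusted p of 0.0974. Both genes, like Cdh6, Cdh9 and Cdh18, lie on chromosome 15, and the latter 3 were not called.

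Cdh2 (N-cadherin), the classical type I cadherin of synapses, was at 5.32, 5.36, 5.53 and 5.92 log2 CPM in TRAP and at 4.71, 4.46, 4.55 and 4.67 in INPUT. The fractions were well apart, by 0.93 ± 0.23 (SE), a 1.91-fold rise with an adjusted p of 0.00668. With the length trend removed the difference was 0.57 (adjusted p = 0.0559). The other type I genes did not rise. Cdh4 (R-cadherin) stood at 45.9 ± 4.08 CPM in TRAP and 44.9 ± 3.15 CPM in INPUT (SD, n = 4), a difference of 0.03 with an interval of -0.44 to 0.50. Cdh15 (M-cadherin), best known from skeletal muscle and cerebellum, was the only gene of the family with every TRAP library below every INPUT library, which 24.4% of all genes were. Its mean was 4.41 ± 1.10 CPM in TRAP and 8.03 ± 0.93 CPM in INPUT, a difference of -0.89 ± 0.35 (SE), with an adjusted p of 0.0635 with the block and 0.00962 without it. Without VP2.11 it was -1.11, with an adjusted p of 0.0357 under the block.

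Among the other type II cadherins, Cdh8, which marks particular sensory and corticostriatal circuits, was at 5.13, 4.87, 5.07 and 4.86 log2 CPM in TRAP and at 4.16, 4.37, 4.31 and 4.61 in INPUT. All TRAP values were above all INPUT values, yet the difference of 0.62 ± 0.24 (SE) had an adjusted p of 0.0613, against 0.00592 without the block, and came to 0.28 with the length trend removed. Cdh6 differed by 1.37 ± 0.51 (SE), the second largest value of the class, with an adjusted p of 0.0531 and a TRAP value below INPUT in VP2.11, without which it was called at 1.88 (adjusted p = 0.0147). Without VP2.2 it came to 0.80 (adjusted p = 0.267). Cdh7, Cdh9, Cdh11, Cdh18, Cdh19, Cdh20 and Cdh22 had differences between -0.37 and 0.51, all with intervals that held 0.

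Cdh13 (T-cadherin), a cadherin held in the membrane by a lipid anchor and without an intracellular part, had the highest mean level per kb in both fractions among the 47 genes ranked below, though in TRAP its lead over Pcdh9 was less than their spread. It was at 7.21, 6.84, 7.24 and 6.98 log2 CPM in TRAP and at 6.89, 7.43, 6.84 and 7.08 in INPUT. TRAP was higher in 2 pools and lower in the other 2, and the mean difference was 0.01 with a 95% interval of -0.48 to 0.49.

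Cdh5 (VE-cadherin), the adhesion protein of endothelial junctions, was at 0.07, 0.42, -0.75 and 3.10 log2 CPM in TRAP and at -0.19, -0.49, 0.47 and -0.61 in INPUT. A single library, TRAP VP2.11, was high, and the difference of 0.91 (95% interval -0.76 to 2.58) became -0.02 without that pool. The 3 endothelial list genes with values (Flt1, Kdr and Pecam1) summed to 12.6, 9.68, 9.68 and 37.5 CPM in TRAP and to 4.37, 7.59, 7.09 and 5.45 CPM in INPUT. Of these 3 genes Flt1 was called higher, by 2.37, and none was lower, beside 15.4% and 16.8% of all genes. TRAP VP2.11 was the highest library for that sum as well as for Cdh5, and also for the mural and fibroblast list, at 69.3 CPM against 23.9 to 39.2 CPM in the other TRAP libraries. The part of vascular RNA in the high values of TRAP VP2.11 was not tested.

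Levels per kb of exon were compared across 47 genes, with the alpha and gamma entries left out. In TRAP, Cdh13 led with 12.0 ± 1.58 CPM per kb, followed by Pcdh9 with 11.3 ± 2.14, Pcdh17 with 9.80 ± 0.89 and Pcdh8 with 9.34 ± 2.58 (SD, n = 4). Neighbours among them differed by less than the larger of their SDs, but Cdh13 lay above Pcdh17 and Pcdh8 by more than that. Cdh4, Pcdh19, Cdh2 and Pcdh10 came next at 6.33 to 5.76 CPM per kb, and then Pcdhb9 at 5.12 ± 1.86 and Pcdhb20 at 4.36 ± 0.86. Of the 46 pairs of neighbours in this order, 44 differed by less than the larger of their SDs, so the order holds only over longer steps. Within the beta cluster the level per kb ranged 23.5-fold, down to 0.22 CPM per kb for Pcdhb6.

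**Figure D5:**
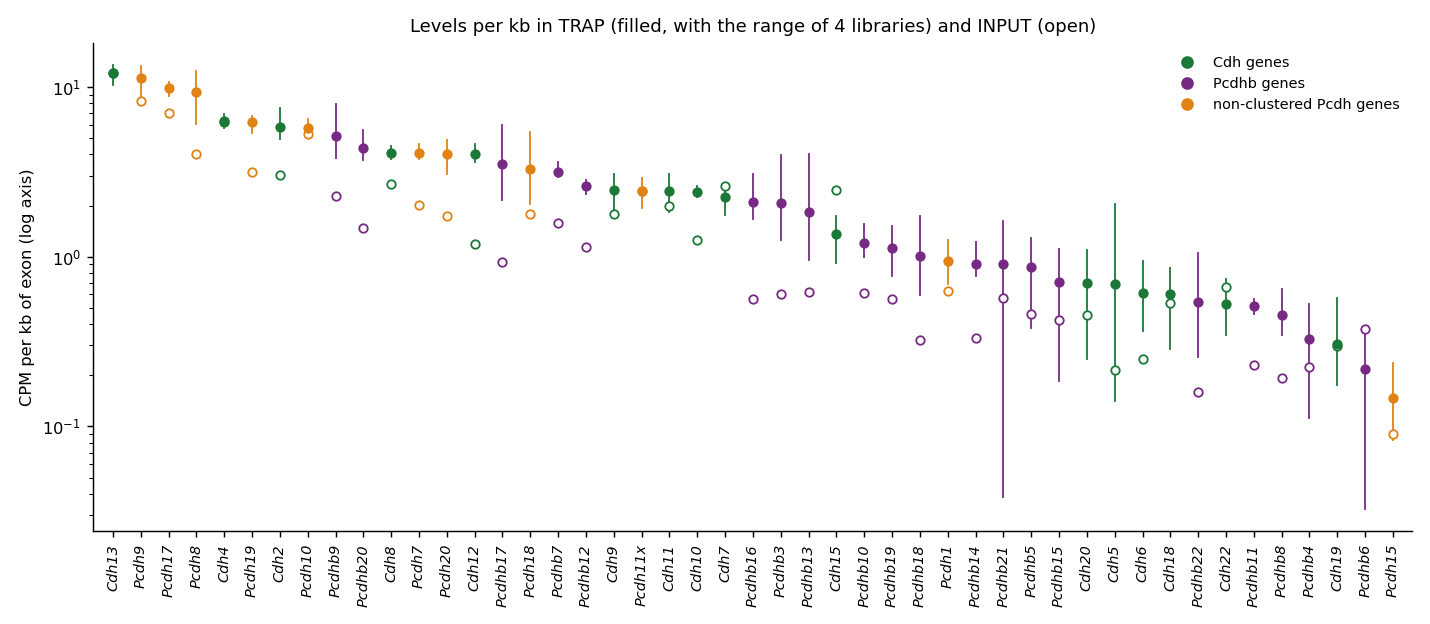
Mean CPM per kb of exon (log axis) in TRAP (filled, with the range of the 4 libraries) and INPUT (open) for 47 genes in the order of their TRAP level, coloured by class. Cdh13 is highest at 12.0 CPM per kb and Pcdh15 lowest at 0.15, and the filled points of most Pcdhb genes lie clearly above their open points.

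Genes that work with the family were counted by lists, which were chosen with earlier results of these data known. The cadherin-related genes outside it (Fat, Dchs, Celsr, calsyntenin and others) had 8 of 13 higher, beside 15.4% of all genes, 0 lower and a median of 1.53. With the length trend removed 5 were higher. They included all 3 calsyntenins, which are postsynaptic organizers that carry cadherin repeats: Clstn1 rose by 1.53, Clstn2 by 1.97 and Clstn3 by 1.26. Celsr2, a cadherin of planar cell polarity, rose by 0.96, whereas Celsr3 (0.64) did not pass the threshold.

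Of the catenins and the p120 family 4 of 13 rose and 1 fell, beside 15.4% and 16.8% of all genes, with a median of 0.50. Ctnnb1 (beta-catenin) rose by 0.98, Ctnna2, the alpha-catenin of neurons, by 1.17, Jup (plakoglobin) by 1.20 and Afdn (afadin) by 1.26. Ctnnal1 fell by 1.54, the lower call of this list, and without VP2.6 or VP2.11 no gene of the list was called lower. Ctnna1, the widely expressed alpha-catenin, differed by 0.05, and the neuronal p120 relative Ctnnd2 by -0.39 (adjusted p = 0.179).

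Among 14 regulators of the clustered promoters 7 rose, beside 15.4% of all genes, and 0 fell, with a median of 0.66. With the length trend removed 5 were called higher and 2 lower, and without VP2.6 5 were called higher. The cohesin ring subunits Smc1a (2.61), Smc3 (1.93) and Rad21 (0.98) rose, as did the cohesin-associated Pds5b (0.73), the silencing factor Smchd1 (1.47) and the DNA methyltransferases Dnmt1 (1.47) and Dnmt3a (0.75), while the insulator protein gene Ctcf differed by 0.29 (adjusted p = 0.315). The WAVE complex, which some delta and clustered protocadherins recruit, had 1 of 9 higher (Cyfip1, 0.85) and 1 lower (Brk1, -1.29). All genes gave 15.4% higher and 16.8% lower, and the median of the WAVE list was 0.00. With the length trend removed the list had 0 higher and 2 lower. The sheddase and gamma-secretase genes that cleave cadherins had 0 of 9 higher and 1 lower (Psenen, -1.16), beside the same shares of all genes, with Adam10 at -0.02. Of 3 kinases that bind clustered protocadherins, Ptk2b rose by 0.74 and Fyn fell by 0.76, again beside 15.4% and 16.8% of all genes. Without VP1.6, and likewise without VP2.6, neither call of this list remained, and with the length trend removed 0 were higher.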

How the data were processed

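RNA from VP tissue was sequenced in TRAP and INPUT fractions of 4 pools (75-base single reads). The authors used STAR 2.5.1a (GRCm38, Ensembl annotation) and featureCounts for unique, unambiguous reads per gene, then TMM scaling in edgeR, and fitted limma with voom and quality weights. The deposited per-library values were taken as log2 CPM, and whether they had been adjusted by pool was not determined. The authors' fold changes and p-values were not used. The table has 14398 entries, of which 45 are second entries of a gene and were dropped.

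Here, limma 3.58.1 (lmFit, eBayes with a trend; R 4.3.3) compared the fractions on log2 CPM, with pool as a block and Benjamini-Hochberg adjustment over 14249 genes over 1 CPM in at least 3 libraries. Pools pair libraries because labels give both fractions 1 pool and the methods 1 homogenate. The authors' stated model has no block; it was added because libraries of a pool deviate oppositely from their fractions' means (r across genes -0.755 to -0.503, against 0.0462 to 0.437 between pools). Scripts were tested on simulated data. Each pool is 1 sample. The SEs and p-values use the spread between pools, with each gene's variance drawn toward that of genes of like level. They do not measure a gene's own spread alone. Pcdhgc4, for 1, had an SD of 0.077 over its 4 pool differences and an SE of 0.21.

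Exon lengths, positions and shared 75-base stretches are from GENCODE M21 (GRCm38). Depth was estimated for VP2.2 and VP2.6 from differences of low genes within a pool, taken as ratios of whole reads; the reads of single genes were not recovered, and no count test was run. The alternatives tried were no block, array weights, other filters and scalings, a fold threshold, removal of the exon length trend and leaving out each pool.

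The members and lists were chosen with earlier results of these data known. Values per library are given for genes past the threshold with a log2 fold change of at least 1, for the 2 of each class with the smallest adjusted p in each direction, for the highest level per kb of each class, and for Cdh2, Cdh5, Cdh8, Cdh13, Pcdh7, Pcdh9, Pcdh10, Pcdh17 and Pcdh19. Pcdhb6 and Pcdhb21 were added after their values were seen. Cdh1, Pcdh12, Pcdhac2 and Pcdhgc5, which the rule also names, were not among the 49 genes with values, so nothing is said of their levels.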

Additional observations from a re-analysis of the deposited data

Results flagged for a closer look

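Among the 50 sets of 4 libraries examined (25 genes named by the rule, in each fraction), Dixon's criterion picked out 1 library in 4 sets, and chance alone picks about 1 set in 20, or 2.5. The TRAP value of Pcdhb13 in VP2.11 was high, at 3.90 log2 CPM against 1.83 to 2.112 in the other TRAP libraries. The INPUT value of Pcdha11 in VP2.2 was low, at 5.59 against 6.30 to 6.38, and so was that of Pcdh17 in VP2.2, at 6.07 against 6.59 to 6.69. The INPUT value of Pcdhb9 in VP1.6 was low, at 2.49 against 2.85 to 2.92. In INPUT, VP2.2 was the lowest library for 30 of the 49 genes of the family. Of the 4 genes, Pcdhb13 lost its call without the pool concerned, Pcdha11 and Pcdhb9 kept theirs, and Pcdh17 had none.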

How the results depend on the processing

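The direction of the family's median and of the Pcdhb median held under every alternative run, at 0.57 to 1.05 and 0.96 to 1.68. With pool as a block, 20 genes were called, beside 28 without the block (20 shared), 22 with array weights (19 shared), 15 to 20 with a pool left out, 18 after removal of the exon length trend (16 shared), 25 after quantile normalization (19 shared), 15 with a log2 fold change of at least 1, and 20 or 21 under the other filters, log2(CPM + 1) and median centring. Without the replicate block that pairs the libraries, Cdh genes gave 5 higher and 1 lower, and the family 1 lower. Array weights gave the same 5 and 1. Removal of the length trend gave 1 Cdh gene higher and 1 lower (Cdh7, -0.66), 1 non-clustered protocadherin lower (Pcdh11x, -0.57), 2 lower in the family and 0 gamma entries higher. A fold threshold left 1 Cdh gene, 0 alpha and 0 gamma entries, and quantile normalization and median centring left 0 gamma entries higher. With a pool left out, Pcdhb genes called higher numbered 7 to 10, gamma entries 0 to 1, and genes lower 0 to 1 in the family and among the Cdh genes (Cdh15, without VP2.11). The 7 came without VP2.6.

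Sign changes were confined to genes not called with pool as a block. Quantile normalization gave Cdh4 -0.04, Cdh13 -0.15, Cdh19 0.86, Cdh22 0.08, Pcdh10 -0.016 and Pcdhb21 0.73. Array weights gave Cdh11 -0.03, Cdh20 -0.17, Pcdh10 -0.017 and Pcdhb21 0.42. Without the length trend, Cdh4 was -0.28, Cdh11 -0.11, Cdh13 -0.48, Cdh18 -0.013, Pcdh10 -0.47, Pcdh15 -0.065 and Pcdh17 -0.049. Median centring gave Pcdh11x 0.025 and Pcdhb21 0.021, and log2(CPM + 1) gave Pcdhb21 0.30. With a pool left out, the ranges were -0.048 to 0.101 for Cdh4, -0.019 to 1.63 for Cdh5, -0.020 to 0.51 for Cdh11, -0.12 to 0.21 for Cdh13, -0.22 to 0.50 for Cdh18, -0.63 to 0.36 for Cdh19, -0.029 to 1.17 for Cdh20, -0.030 to 0.26 for Pcdh10, -0.18 to 0.15 for Pcdh11x, -0.11 to 1.30 for Pcdhb4 and -0.87 to 1.59 for Pcdhb21. The cause of these shifts was not tested. In all, 544 gene values under alternatives kept sign and side of the threshold, 28 lost the call, 25 gained one and 37 changed sign. Depth could be estimated for 2 of the 4 pools and the reads of single genes for none, so the counting precision of the low genes is unknown.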

Other observations

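In the whole table the 3322 genes that were higher in TRAP in all 4 pools were the same genes as those with every TRAP library above every INPUT library. For the family the 2 counts are therefore 1 fact and not 2: 26 of the 49 genes were higher and 1 lower by either measure. Among all genes tested these shares were 23.3% and 24.4%. Libraries of a pool also deviated oppositely from the means of their fractions. Whether the deposited values had been adjusted by pool was not determined. The SDs and the lack of overlap between libraries may therefore understate the spread of the pools. In INPUT, VP2.11 was the highest library for 14 of the 20 Pcdhb genes, and VP2.2 the lowest for 10.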
